A study of Mus musculus with 72 samples.

Results

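The ATP-binding cassette (ABC), organic anion transporting polypeptide (OATP) and Slc22 transporters were described in mouse liver and in the suprachiasmatic nucleus (SCN), the part of the hypothalamus that acts as the body's master clock. Members were taken by symbol: every gene of the ABC subfamilies A to G, every Slco gene and every Slc22a gene in the liver or SCN count table, with Abcb11, Abcb4, Abcb1a and Slco1c1 left out. This gave 70 of 24091 genes, of which 40 were ABC genes, 10 were OATP genes and 20 were Slc22 genes. The liver table held 68 of them among 22823 genes and the SCN table held 44 among 15759 genes, and 42 were in both tables.

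C57BL/6 mice of 8 to 12 weeks ate either a diet without methionine and choline (MCD) or its isocaloric control. They were kept for 10 days in a light-dark cycle and killed in constant darkness on day 11, every 4 h over 6 circadian times (CT00 to CT20). The labels give 1 genotype for all mice and name no other agent. Each of the 12 groups of diet and time had 3 libraries per tissue, labelled as 2 males and 1 female, although the growth protocol names males only, so 24 male and 12 female libraries were compared per tissue. The liver came from the left lobe and the SCN from laser-microdissected sections.

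ABC transporters use ATP to move lipids, bile constituents, drugs and conjugates across membranes, mostly out of the cell or into organelles. OATPs and Slc22 carriers sit mainly in the plasma membrane and take up organic anions, organic cations and carnitine without ATP. In the hepatocyte the uptake carriers of the sinusoidal face, the exporters of the canalicular face and the basolateral exporters together route bile acids, bilirubin conjugates and drugs between blood and bile.

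Liver libraries held 52600280 to 86740552 counts and SCN libraries 23347789 to 79812461. All 8 SCN neuron markers were listed in SCN, where 5 of the 8 choroid plexus and ependyma markers (Ttr, Folr1, Kl, Otx2 and Kcnj13) were not in the table and the other 3 (Foxj1, Rarres2 and Tmem212) summed to 78.7 to 164 CPM on control diet and 50.6 to 171 on MCD. In liver the 6 hepatocyte markers summed to 79700 to 121000 CPM on control diet and 57500 to 124000 on MCD, and 4 of the 6 were lower on MCD. The 7 listed Kupffer cell and macrophage markers summed to 193 to 533 CPM on control diet and 273 to 651 on MCD, and all 7 were higher on MCD; their part in the results below was not tested. CPM is the count scaled to library size, here to TMM-scaled library totals. In bulk tissue, fewer cells of a type and less RNA per cell cannot be told apart.

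In 3 male livers many transporters lay outside the other males of their diet. These were control CT08 a, which is one of a pair of control CT08 male columns that share a name, MCD CT04 replicate 1 and MCD CT12 replicate 2. The control library was above the other 11 control males for 15 of the 67 members tested and below them for 19. Both MCD libraries were above the other 10 MCD males for 10 members and below them for 12. All 3 were above for 9 members and below for 12. Their macrophage marker sums were 533, 647 and 651 CPM, their stellate cell sums 699, 850 and 820 CPM, and their hepatocyte sums 79700, 57500 and 63400 CPM. These values move with the members named below, and their part was not tested; results are given with and without the 3 libraries where a call or a value changed.

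The first comparison asked which transporter transcripts differed between the diets in liver, averaged over the 6 times. Of the 67 members that passed the filter on low counts, 43 were called (64.2%) at an adjusted p under 0.05 in edgeR's quasi-likelihood test with Benjamini-Hochberg adjustment over all genes, against 46.6% of all 20249 genes tested. Of these, 23 were higher on MCD, where 25.3% of all genes were, and 20 were lower, where 21.2% of all genes were. The median log2 difference of the members was 0.11 and that of all genes 0.02, and the median absolute difference was 0.41 for the members and 0.25 for all genes. Without the 3 libraries that lay apart 41 members were called, all of them among the 43. Scaling to library totals in place of TMM moved the median of all genes to 0.27 and called 52 members, 38 higher and 14 lower; of all genes called, 87.3% were then higher, against 54.4% with TMM. Of the 43 calls 37 were kept under that scaling, and those of Abca1, Abcc10, Slc22a15, Slc22a23, Slco1b2 and Slco2a1, all lower with TMM, were lost. Across the roles, the OATP uptake carriers held more falls than rises, with 2 of 9 higher, 5 lower and a median log2 difference of -0.19 (medians given for other roles are of the same quantity); the falls of Slco1b2 and Slco2a1 were among those lost under library-total scaling. The ABCC conjugate exporters held more rises, with 4 of 7 higher, 2 lower and a median of 0.51.

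**Figure D1:**
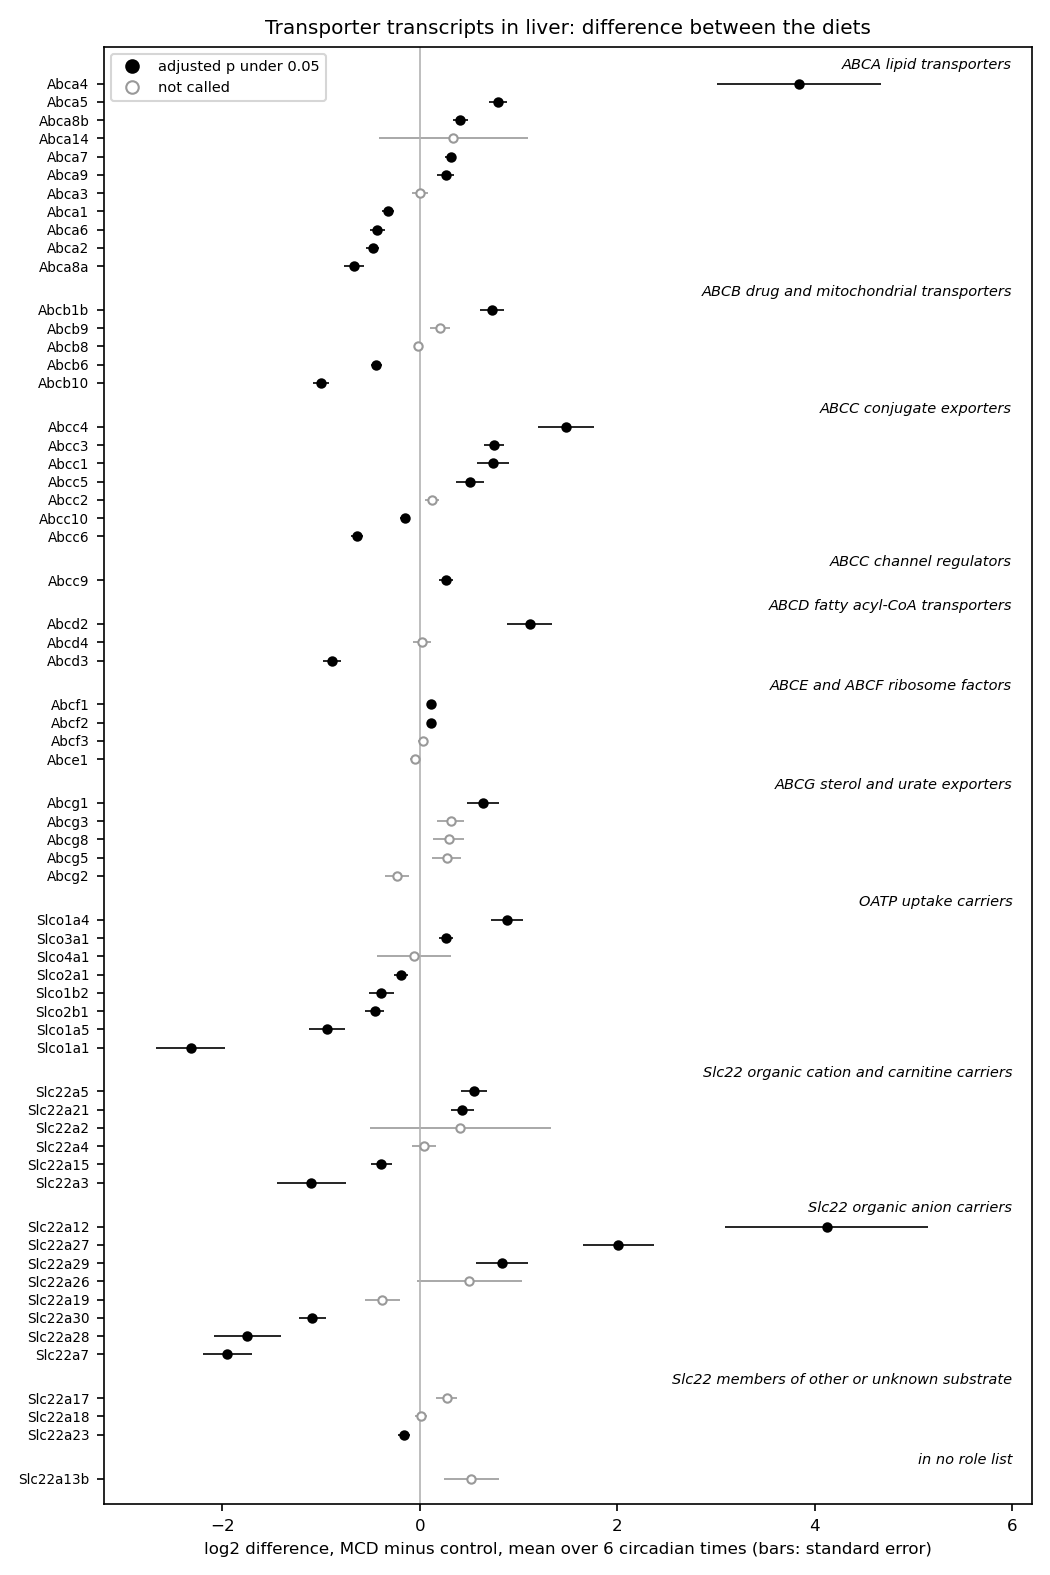
Log2 difference between the diets (MCD minus control, mean over 6 circadian times, x axis) for 62 of the 67 liver members tested, grouped by role; points are estimates from 36 libraries, bars are standard errors, and filled points passed an adjusted p of 0.05. Slco1a1, Slc22a7 and Slc22a28 lie furthest to the left; Abcc4 and Slc22a27 lie to the right, and Abca4 and Slc22a12, which had few counts, lie furthest right.

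Levels were compared between members per kilobase of exon. Slco1b2, which takes up bile acids, bilirubin and drugs at the sinusoidal face, had the highest mean level, 216 CPM per kb on control diet and 166 on MCD. High levels were also those of the peroxisomal half-transporter Abcd3 (106 and 57.9 CPM per kb), Slco1a1 (97.8 and 25) and the canalicular conjugate exporter Abcc2 (80.2 and 88). The differences between these members were not tested.

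Among the OATPs, Slco1a1 had the largest fall. In control males its level ran from 236 to 869 CPM with a median of 747, and in MCD males from 8.66 to 325 CPM with a median of 240. In females it ran from 24.5 to 165 CPM (median 59.6) on control diet and from 6.73 to 18.1 CPM (median 8.29) on MCD. Within females the diets did not overlap, and in males only the control CT08 a library at 236 CPM fell within the MCD range. Slco1a1 (ENSMUSG00000041698.12), which takes up organic anions and steroid conjugates, was 4.98-fold lower on MCD (log2 -2.32, SE 0.35, adjusted p = 7.91e-06). In the 3 libraries that lay apart it was at 236, 11.8 and 8.66 CPM, against 698 to 869 CPM in the other control males and 137 to 325 CPM in the other MCD males.

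Slco1b2 fell less, from 1070 ± 244 CPM (SD, n = 18) on control diet to 817 ± 224 CPM on MCD (log2 -0.39, SE 0.13, adjusted p = 0.0158 by edgeR). It was lower on MCD at 5 of 6 times. The exception was CT08, where controls were at 408 (control CT08 a), 1430 and 1287 CPM and MCD libraries at 1194, 1140 and 810 CPM. The 3 lowest male values of Slco1b2 were the 3 libraries that lay apart (408, 471 and 377 CPM). Without them the difference was -0.37 and the adjusted p 1.37e-05 by edgeR. Under library-total scaling its difference was -0.14 and the call was lost (adjusted p = 0.258). Slco2b1, a sinusoidal carrier of steroid sulfates, went from 205 ± 36.4 to 149 ± 30.2 CPM (log2 -0.46, SE 0.1, adjusted p = 0.000375). Slco1a5, a low-abundance paralog of Slco1a1, ranged from 1.2 to 3.15 CPM in control males and from 0.527 to 1.67 CPM in MCD males (log2 -0.94 over both sexes, SE 0.18). In females the diets overlapped, with Slco1a5 at 0.736 to 1.48 CPM on control diet and 0.568 to 1.23 CPM on MCD. The prostaglandin carrier Slco2a1 was lower by a log2 difference of -0.19 (adjusted p = 0.0348), and this call was lost without any 1 of 8 libraries, with adjusted p up to 0.0685, and without the 3 libraries that lay apart (0.0677). Scaling to library totals turned it to 0.07.

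One OATP of the same gene family moved the other way. Slco1a4 (ENSMUSG00000030237.15), a multispecific uptake carrier that is also a marker of brain endothelium, was 1.84-fold higher on MCD (log2 0.88, SE 0.16, adjusted p = 8.16e-05 by edgeR). Control males ranged from 14.4 to 61.9 CPM (median 28.5) and MCD males from 43.3 to 114 CPM (median 78). Females were at 92.6 to 189 CPM on control diet and 93 to 195 CPM on MCD, so the diets overlapped fully in females and in part in males. Slco3a1 was also higher (log2 0.26, SE 0.07). Slco4a1, and Slco5a1 with 141 counts in all 36 libraries, did not pass the test.

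**Figure D2:**
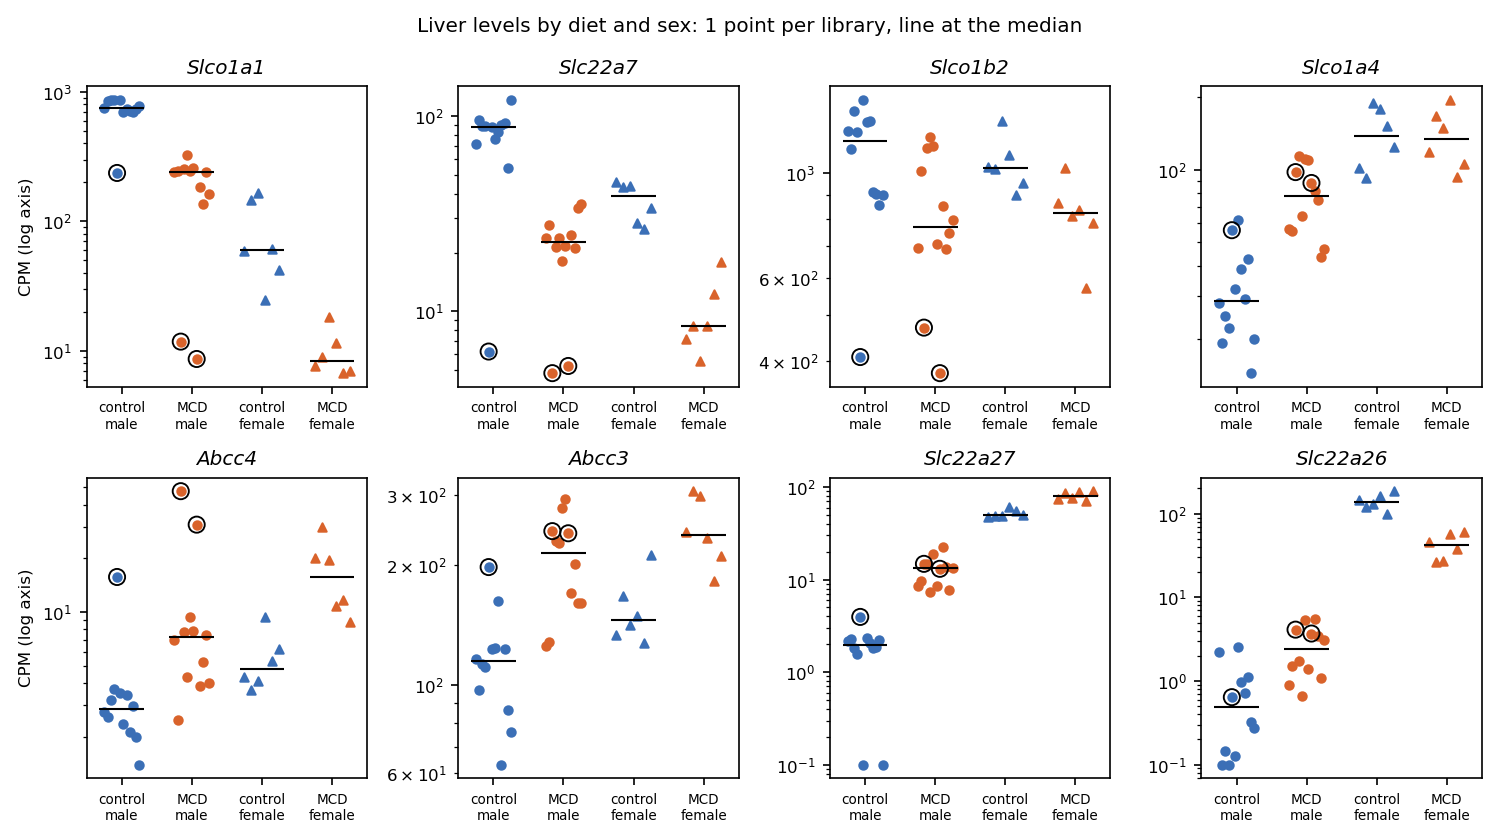
CPM of 8 uptake carriers and exporters (log y axis) in each of 36 liver libraries by diet and sex, with a line at the median of each group; circles are males, triangles females, ringed points are control CT08 a, MCD CT04 replicate 1 and MCD CT12 replicate 2, and values under 0.1 CPM are drawn at 0.1. The ringed points lie below the other males of their diet for Slco1a1, Slc22a7 and Slco1b2 and above them for Abcc4, and Slc22a27 and Slc22a26 separate the sexes.

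The organic anion carriers of the Slc22 family split in direction, with 3 of 9 higher, 3 lower on MCD and a median of 0.5. Among them Slc22a12, called higher, and Slc22a8 passed the filter on low counts through MCD libraries alone. The count of rises and the median, which is the value of the uncalled Slc22a26, are therefore a description. Slc22a7 (OAT2, ENSMUSG00000067144.8), which carries organic anions and nucleobases at the sinusoidal face, was 3.85-fold lower (log2 -1.95, SE 0.25, adjusted p = 6.97e-07 by edgeR). Control males ran from 6.21 to 122 CPM with a median of 88.3 and MCD males from 4.81 to 35.5 CPM with a median of 22.6. Females ran from 26.5 to 45.7 CPM on control diet and from 5.56 to 17.9 CPM on MCD. Again the diets did not overlap in females, and in males the control CT08 a library, at 6.21 CPM, was the only control within the MCD range, since the other control males started at 54.5 CPM.

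Slc22a28 and Slc22a30 were lower on MCD by log2 differences of -1.75 (SE 0.34, adjusted p = 0.00016, edgeR) and -1.09 (SE 0.14, adjusted p = 4.54e-07). Slc22a30 went from 183 ± 48.9 CPM to 86.9 ± 27.8 CPM (SD, n = 18 each). Slc22a28 went from 46.6 ± 20.3 CPM to 15.3 ± 8.05 CPM, and 2 MCD females, CT04 and CT12, were listed at 0. Slc22a27 rose: control males were at 0 to 3.95 CPM (median 1.97), MCD males at 7.39 to 22.3 CPM (median 13.3), control females at 47.2 to 60.5 CPM and MCD females at 70 to 90.4 CPM. Within each sex its diets did not overlap, and the log2 difference was 2.01 (SE 0.36, adjusted p = 5.18e-05). Slc22a29 was higher by 0.83 (SE 0.26, adjusted p = 0.01). These carriers are near-identical copies: 53.86% of the 50-base windows of Slc22a28 also occur in Slc22a30, and 30.53% of those of Slc22a27 in Slc22a29, so counts can have been split between the copies and the values of these 4 genes are uncertain.

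Members of the group with few counts moved from near 0. Slc22a12, a urate carrier of the kidney, had 101 counts in all, with 16 of 18 controls and 6 of 18 MCD libraries at 0, and was called higher (adjusted p = 0.00327 by edgeR); without MCD CT00 replicate 3 or MCD CT16 replicate 3 the call was lost (adjusted p up to 1), and 30.14% of its exons overlap Nrxn2 on the other strand. Slc22a8 (OAT3) was at 0 in all 18 controls and had 64 counts in 7 MCD libraries, 0.0485 CPM over the group. Against 3 counts over the control group (0.00285 CPM) this was at least 17-fold higher; the fit gave Slc22a8 no bounded standard error and an adjusted p of 1. Slc22a12, Slc22a8 and Slco5a1 passed the filter on low counts through MCD libraries alone, so the call of Slc22a12, 1 of the 23 members called higher, is a description.

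Among the cation and carnitine carriers 3 of 7 rose and 2 fell, with a median of 0.15. Slc22a5, the high-affinity carnitine carrier OCTN2, went from 18.7 ± 7.09 CPM to 28.1 ± 13.4 CPM (log2 0.55, SE 0.13, adjusted p = 0.000944 by edgeR). Its paralog Slc22a21 rose by 0.43 (SE 0.12); 24.15% of the 50-base windows of Slc22a21 occur in Slc22a5, so these calls are not independent. Slc22a3, a low-affinity carrier of monoamines, was lower by -1.1 (SE 0.35, adjusted p = 0.0124), with controls at 1.11 to 16.7 CPM and MCD libraries at 1.17 to 8.88 CPM. Slc22a15 was lower by -0.39 (SE 0.11), and by -0.13 with the call lost under library-total scaling (adjusted p = 0.305 by edgeR). Of the 3 members of other or unknown substrate, Slc22a23 was lower (-0.16, adjusted p = 0.0314), a call lost without any 1 of 5 control libraries, and turned to 0.1 under library-total scaling.

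Among the ABCC exporters of glutathione, glucuronide and sulfate conjugates, Abcc4, Abcc3, Abcc1 and Abcc5 rose, Abcc6 and Abcc10 fell, and the canalicular Abcc2 did not pass the test. Abcc4 (MRP4, ENSMUSG00000032849.15), which exports bile acids with glutathione and cyclic nucleotides, was 2.78-fold higher on MCD (log2 1.48, SE 0.28, adjusted p = 0.000131 by edgeR). Control males ran from 1.39 to 15.7 CPM (median 2.85), MCD males from 2.48 to 47.6 CPM (median 7.21), control females from 3.67 to 9.31 CPM and MCD females from 8.81 to 29.8 CPM. The 3 highest male values were the libraries that lay apart, control CT08 a at 15.7 CPM and the MCD pair at 47.6 and 30.9 CPM, while the other males were at 1.39 to 3.68 CPM on control diet and 2.48 to 9.42 CPM on MCD. Without these 3 libraries the difference was 1.31 with an adjusted p of 2.79e-06. Abcc3 (MRP3), which exports bilirubin glucuronides to blood, went from 129 ± 38.8 to 219 ± 55.8 CPM (log2 0.75, SE 0.1, adjusted p = 1.75e-06), and 10 of 18 MCD libraries lay above every control.

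Abcc1 (log2 0.74, SE 0.16, adjusted p = 0.000409) and Abcc5 (0.51, SE 0.14, adjusted p = 0.00473) were also higher in edgeR's test. For both, the 3 libraries that lay apart held the highest levels of their diet: Abcc5 was at 23.4, 30.9 and 30.2 CPM there, against 7.06 to 11 CPM in the other control males and 8.36 to 15.2 CPM in the other MCD males. Without the 3 the differences were 0.58 for Abcc1 and 0.42 for Abcc5. Abcc2 (MRP2), the canalicular exporter of bilirubin conjugates, was at 685 ± 171 CPM on control diet and 751 ± 247 CPM on MCD, and its difference of 0.12 (SE 0.07, adjusted p = 0.189) did not pass; under library-total scaling it was 0.37 with an adjusted p of 0.00018. Abcc6, which drives ATP release from hepatocytes, fell from 226 ± 27.4 to 145 ± 19.1 CPM (log2 -0.64, SE 0.06, adjusted p = 2.34e-09), and 17 of 18 controls lay above every MCD library. Abcc10 was lower by -0.15 and turned to 0.11 under library-total scaling. Abcc9, a potassium channel regulator found in vascular and stellate cells, was higher by 0.26 (adjusted p = 0.0021). The 5 listed stellate cell markers summed to 377 to 699 CPM on control diet and 418 to 850 CPM on MCD, with 2 of 5 higher and none lower. The 6 liver endothelium markers summed to 293 to 413 and 312 to 429 CPM, with 2 of 6 higher and none lower. In the 3 libraries that lay apart Abcc9 was at 48.8, 65.9 and 56.8 CPM, above the other males of their diet, and the part of these markers in its difference was not tested.

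Of the 7 members of this role, Abcc4 had both an E-box and an antioxidant response element core before its start, and 1 of its RefSeq promoter windows is printed for that reason (GRCm38.p6, chr14:118706220-118706469, minus strand, bases -250 to -1). Capitals mark CACGTG at -205 and, on the other strand, TGACNNNGC at -25.
Abcc4: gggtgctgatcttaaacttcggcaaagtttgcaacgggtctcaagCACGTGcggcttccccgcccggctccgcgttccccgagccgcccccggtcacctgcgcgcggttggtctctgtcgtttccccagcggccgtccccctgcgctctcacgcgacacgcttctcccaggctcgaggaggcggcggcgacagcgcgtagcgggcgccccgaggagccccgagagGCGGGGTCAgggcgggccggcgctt
RefSeq windows from 250 bases before to 50 bases after a start were found for 52 of the 70 members, 63 windows in all, and were searched on both strands. CACGTG occurred in 6 members (6 of their 63 windows) and in 7.15% of all 32851 windows. TGACNNNGC occurred in 6 members (8 of 63 windows) and in 12.4% of all windows. TTANGTAA (the D-box) occurred in 2 members (2 of 63 windows) and in 2.32% of all windows. The nuclear receptor direct repeats spaced by 1 and by 4 bases were in no member window and in 0.0396% and 0.0152% of all windows. Each is a match of letters only.

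The ABCB members are drug exporters and mitochondrial or lysosomal transporters, and 1 of 6 rose while 2 fell (median 0.01). Abcb10, a mitochondrial inner membrane transporter linked to heme synthesis, had the lowest adjusted p of all members. It went from 42.5 ± 10.2 CPM (26.9 to 55.5) to 20.9 ± 3.69 CPM (13.7 to 28.3), with 17 of 18 controls above every MCD library (log2 -1, SE 0.08, adjusted p = 1.96e-10 by edgeR). Gm45890 overlaps 10.31% of its exons on the other strand. Abcb6, another transporter linked to porphyrins, was lower by -0.44 (SE 0.06, adjusted p = 2.57e-06), but 66.77% of its windows are shared with the overlapping gene Gm29253. The multidrug exporter Abcb1b rose from 1.86 ± 0.66 to 3.07 ± 0.858 CPM (log2 0.73, SE 0.12, adjusted p = 2.36e-05); 18.3% of its windows are shared with Abcb1a. Abcb8 and Abcb9 did not pass, with differences of -0.02 and 0.2.

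Of the 4 ABCD members 1 rose and 1 fell (median -0.01). Abcd3 and Abcd2 load fatty acyl-CoAs into peroxisomes. Abcd3, the abundant member of liver, ran from 344 to 916 CPM on control diet (median 707) and from 252 to 561 CPM on MCD (median 349), and 17 of 18 controls were above every MCD library (log2 -0.89, SE 0.09, adjusted p = 2.04e-08 by edgeR). The single overlapping control was CT08 a at 344 CPM. Abcd2 moved the other way, by 1.11 (SE 0.23, adjusted p = 0.000284 by edgeR): control males were at 4.66 to 54.3 CPM (median 16.2), MCD males at 22.9 to 66.8 CPM (median 39.1). The highest control male was CT08 a, and the other control males reached 18.8 CPM. In females the diets overlapped, with Abcd2 at 56.6 to 97.6 CPM on control diet and 48.2 to 135 CPM on MCD. Abcd4, a lysosomal member needed for cobalamin release, had a difference of 0.02 and did not pass.

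Of the 11 ABCA members, which move sterols, phospholipids and sphingolipids, 5 rose and 4 fell (median 0.26). Abca5, a lysosomal member, was higher at all 6 times (7.69 ± 1.75 to 13.3 ± 2.33 CPM, log2 0.79, SE 0.09, adjusted p = 4.85e-08 by edgeR). The neighbours Abca6 and Abca8a fell by 0.43 and 0.67 on the log2 scale (SE 0.08 and 0.1), while Abca8b rose by 0.41 (SE 0.08). Abca2 was lower by -0.48 (SE 0.07, adjusted p = 1.24e-06). Abca1, which lipidates apolipoprotein A-I, was at 283 ± 43.5 CPM on control diet and 228 ± 44.5 CPM on MCD (log2 -0.32, SE 0.06, adjusted p = 0.000141); under library-total scaling its difference was -0.06 and the call was lost. Abca7 rose by 0.31 (SE 0.06). Abca9 rose by 0.26 (adjusted p = 0.0201), lost without MCD CT12 replicate 2 (0.0517) or without the 3 libraries (0.106). The retinal member Abca4 was called higher on 588 counts in all, with 12 of 18 controls and 2 of 18 MCD libraries at 0 and means of 0.0767 and 0.392 CPM (adjusted p = 0.000562).

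Of the 5 ABCG members tested only Abcg1, a sterol exporter of macrophages and other cells, was called (log2 0.64, SE 0.16, adjusted p = 0.0014 by edgeR). It was at 22.1, 30.9 and 32.2 CPM in the 3 libraries that lay apart, against 5.54 to 9.12 CPM in the other control males and 8.84 to 13.7 CPM in the other MCD males, and without the 3 the difference was 0.51 (adjusted p = 3.65e-06). Abcg5 and Abcg8, the half-transporters that together export sterols into bile, were at 82 ± 45.1 and 103 ± 56.3 CPM on control diet and 91 ± 38.1 and 124 ± 71.6 CPM on MCD. Their differences of 0.27 (SE 0.15) and 0.29 (SE 0.16) had adjusted p of 0.154 and 0.162; both were called without control CT20 replicate 3 (0.0278 and 0.0275) and under library-total scaling (0.00222 and 0.00318). Abcg2, the canalicular exporter of urate and drugs, had a difference of -0.23 (adjusted p = 0.11), was called without MCD CT04 or MCD CT12 replicate 3 (adjusted p down to 0.0318) and turned to 0.02 under library-total scaling. Abcg4 had 77 liver counts and was filtered out.

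The ABCE and ABCF members act at the ribosome and do not transport. Abcf1 and Abcf2 were each higher by 0.11 (adjusted p = 0.0131 and 0.0401 by edgeR), and Abce1 and Abcf3 did not pass. The Abcf2 call was lost without any 1 of 23 libraries, with adjusted p up to 0.106.

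Of 14 nuclear receptors and other regulators of transporter genes, 3 were higher and 1 was lower on MCD, with a median of 0.01, where 46.6% of all genes were called. The aryl hydrocarbon receptor Ahr (0.64, SE 0.09), the antioxidant regulator Nfe2l2 (0.2, SE 0.06) and its inhibitor Keap1 (0.1, SE 0.04) rose in edgeR's test. The bile acid receptor Nr1h4 (-0.22) and the lipid sensor Ppara (-0.22) missed the threshold, with adjusted p of 0.0505 and 0.0568. Of 13 other hepatic transporters tested, including the members left out by name, 4 rose and 3 fell, with a median of -0.13, a share near that of all genes. The bile acid uptake carrier Slc10a1 fell by 1.34 on the log2 scale (SE 0.16), and the basolateral bile acid exporter subunit Slc51b rose by 1.82 (SE 0.29). The canalicular bile salt exporter Abcb11 had a difference of -0.02 (SE 0.07, adjusted p = 0.882).

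Split by time, the liver comparison had 3 libraries against 3 and called fewer members. CT04 had the most, 24 of 67 (18.2% of all genes), followed by CT12 with 14 (15.2%), CT00 with 12 (12.6%), CT16 with 7 (12.5%), CT20 with 7 (11.3%) and CT08 with 1 (1.3%). Leaving out any 1 library gave 10 to 26 calls at CT04, 6 to 19 at CT12 and 5 to 13 at CT00. It gave 5 to 11 at CT16, 4 to 11 at CT20 and 0 to 9 at CT08, so the order of the times rests on single libraries. Abcb10, Abcc6 and Abcd3 were called lower at every time other than CT08. At CT04 all 7 ABCC conjugate exporters were called, 5 higher (9.46% of all genes) and 2 lower (8.71%), and the Abcc4 difference there was 3.02 (SE 0.73, adjusted p = 0.00551 by edgeR). Both values moved without MCD CT04 replicate 1: 2 of the 7 were then called, Abcc3 and Abcc6, the Abcc4 difference was 1.97 with an adjusted p of 0.0817, and CT04 had 10 members called against 19 at CT12 (1994 and 3465 of all genes, where 3679 and 3081 were called with every library). Without all 3 libraries that lay apart 4 of the 7 were called at CT04, with Abcc4 at 1.9 (adjusted p = 0.00714). CT04, CT08 and CT12 each hold 1 of the 3 libraries that lay apart. The share of all genes called moved with the libraries too. Without control CT08 a the CT08 count was 9 (5.86% of all genes), the CT16 count 11 (15.3%) and the CT12 count 19 (18.4%). Without all 3, CT00 had 21 calls (18.7% of all genes), CT04 17 (14.8%), CT08 11 (9.32%), CT12 14 (11.4%), CT16 16 (20.2%) and CT20 17 (18.6%).

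The next comparison asked which members had a 24 h rhythm on each diet. In control liver 13 of 67 were called (17.8% of all genes) and on MCD 18 (28.2%). On control diet the widest fitted ranges, from trough to peak, were those of Abcg8 (2.07 on the log2 scale, adjusted p = 0.00039 by edgeR) and Abcg5 (2.03, adjusted p = 0.000198). Control livers held Abcg5 at 22.7, 18.4 and 61.6 CPM at CT20 and at 64.9, 159 and 152 CPM at CT08, where control CT08 a was the low value. By a cosine fitted per diet, Abcg5 peaked at 8.16 ± 0.568 h (SE) on control diet and 5.17 ± 0.82 h on MCD, and Abcg8 at 6.95 ± 0.607 h and 4.16 ± 0.748 h. Abcc2 peaked at 8.38 ± 0.61 h and 5.39 ± 0.708 h. For these 3 genes the difference in rhythm did not pass the test of the difference itself, so no shift is called.

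The rhythm differed between the diets for 4 members (4.87% of all genes): Abca2, Abcb6, Abca8b and Abcd3. Abca2 peaked at 1.67 ± 0.436 h on control diet and 20.7 ± 0.712 h on MCD (size of the difference 1.12 on the log2 scale, adjusted p = 0.00365 by edgeR). At CT04 it was at 118.5, 118.8 and 96.9 CPM in control livers and at 40.3, 51.8 and 52.4 CPM in MCD livers, with no overlap. Abcb6 had a fitted range of 0.23 on control diet, where its mean was highest at CT12 (53.6, 56 and 44.3 CPM). On MCD it cycled, from 19.1, 21.3 and 27.7 CPM at CT00 to 40.2, 45.8 and 47 CPM at CT12 (difference in rhythm 0.78, adjusted p = 0.0271 by edgeR). Most of the windows of Abcb6 are shared with Gm29253, as given above. Abca8b peaked at 2.86 ± 0.51 h on control diet and 0.0811 ± 0.406 h on MCD (difference 1.02, adjusted p = 0.0278). Abcd3 was at 344, 644 and 669 CPM at CT08 on control diet and highest there on MCD, at 558, 561 and 503 CPM (difference 1.08, adjusted p = 0.0357). CT08 had the lowest control mean, 552 CPM, only with control CT08 a; without it the CT08 mean was 656 CPM and CT04 was lowest at 627 CPM. Of these calls only that of Abca2 held whichever single library was left out: Abcb6 was lost without 2 libraries, Abca8b without 6 (control CT08 a among them) and Abcd3 without 14, with adjusted p up to 0.0551, 0.06 and 0.0673. Without the 3 libraries that lay apart Abca8b had an adjusted p of 0.0584 and Abcd3 of 0.000751. Without all libraries of replicate number 1 or of number 2 none of the 4 was called, and without number 3 only Abca2 was.

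**Figure D3:**
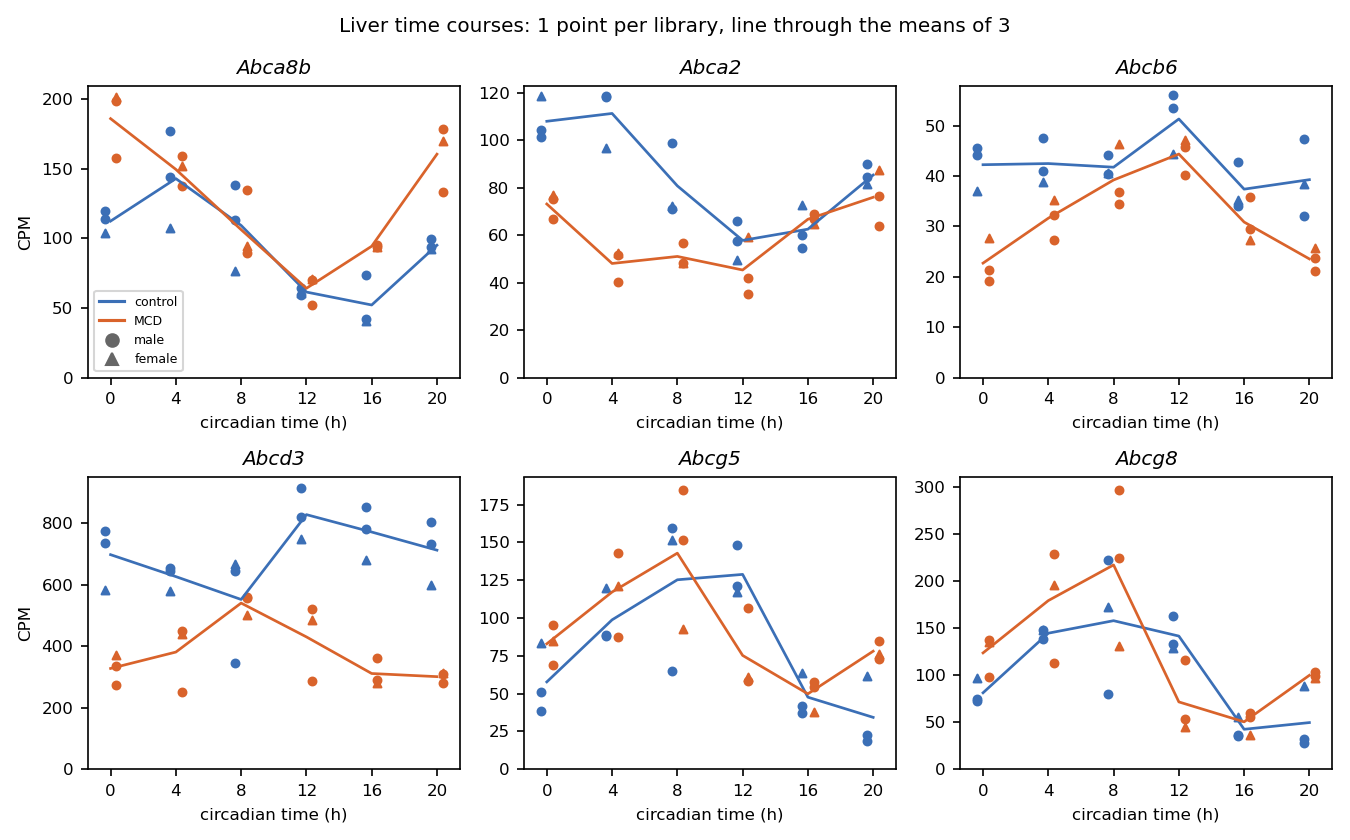
Liver CPM (y axis) against circadian time in h (x axis) for the 4 members whose rhythm differed between the diets and for Abcg5 and Abcg8; each point is 1 library, circles are males and triangles females, and lines join the means of 3. Control and MCD libraries of Abca2 are apart at CT00, CT04 and CT08 and overlap at CT12, CT16 and CT20, and the low control male of Abcd3, Abcg5 and Abcg8 at CT08 is control CT08 a.

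Abca8b and Abcf1 were the only members called rhythmic on control diet in both tissues, and each holds a CACGTG, capitalised in the RefSeq sequences below (GRCm38.p6, minus strand). The SCN call of Abcf1 lay at the threshold (adjusted p = 0.0487 by edgeR) and was lost without any 1 of 26 of the 36 SCN libraries, with adjusted p up to 0.149; that of Abca8b held whichever single library was left out. For Abca8b bases 1 to 30 after the start are given (chr11:109995816-109995845), where the capitals also take in an overlapping TGACNNNGC match of the other strand. For Abcf1 bases -250 to -1 are given (chr17:35969751-35970000).
Abca8b: ggagcagccatGCGCGGTCACGTGtccgtg
Abcf1: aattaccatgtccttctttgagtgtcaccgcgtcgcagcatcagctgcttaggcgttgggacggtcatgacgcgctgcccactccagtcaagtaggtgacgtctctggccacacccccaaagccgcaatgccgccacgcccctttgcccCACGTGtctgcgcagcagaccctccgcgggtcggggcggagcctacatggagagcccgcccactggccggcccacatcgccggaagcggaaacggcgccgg
In liver the fitted range of Abcf1 on control diet was 0.42 on the log2 scale with its peak at 12.8 h, and in SCN it was 0.26 with its peak at 12.8 h. Abca8b peaked at 2.86 h in control liver and at 9.96 ± 0.813 h in control SCN; the peaks were not tested against each other. The other E-box members are Abca1, Abca8a, Abcc4 and Slc22a4, none of which was called rhythmic on control diet in SCN. Of these, Slc22a4 was called on control diet in liver (adjusted p = 0.0286 by edgeR), a call lost without any 1 of 8 libraries, with adjusted p up to 0.0917. Whether the motif goes with rhythm was not tested.

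The labels allowed the sexes to be compared, with the limit that every female library carries replicate number 3, so sex and number cannot be told apart. In liver 19 of 67 members differed (28.4%, against 9.44% of all genes); 12 were higher in females, where 5.17% of all genes were, and 7 were lower, where 4.27% were. Slc22a26 (ENSMUSG00000053303.15), an organic anion carrier, had the largest difference (log2 6.09, SE 0.55, adjusted p = 2.4e-08 by edgeR), followed by Slc22a27 (3.84, SE 0.36, adjusted p = 4.15e-08). The sexes did not overlap for Slc22a26, Slc22a27 or the surfactant lipid transporter Abca3 (0.77, SE 0.08). Slco1a4 (1.55, SE 0.17), Abcd2 (1.82, SE 0.23) and Slc22a29 (1.86, SE 0.26) were also higher in females. Slco1a1 (-3.8, SE 0.45), Slc22a7 (-1.1, SE 0.27), Abcg2 (-0.77, SE 0.13), Slco1a5 (-0.73) and Abcb10 (-0.41) were lower. The Slc22a28 call (-1.23, adjusted p = 0.0427) was lost without any 1 of 18 libraries, with adjusted p up to 0.0844. Those of Slc22a5 and Abca8a were lost without any 1 of 26 and 23 libraries. Stellate cell markers summed to 521 to 626 CPM in control females and 377 to 466 CPM in control males other than CT08 a. Macrophage markers summed to 271 to 455 and 193 to 271 CPM in the same groups, and hepatocyte markers to 105000 to 121000 and 84100 to 109000 CPM. The part of these markers in the sex differences was not tested.

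The diet difference itself differed between the sexes for 7 members (10.4%, against 1.77% of all genes), 2 more positive in females (0.914% of all genes) and 5 more negative (0.859%). Slc22a26 moved in opposite directions. Its male libraries were at 0 to 2.58 CPM on control diet (median 0.483) and 0.662 to 5.56 CPM on MCD (median 2.43), a log2 difference of 1.96 (adjusted p = 0.00159 by edgeR). Its female libraries were at 99.9 to 186 CPM on control diet (median 139) and 26.7 to 60.4 CPM on MCD (median 41.9), a difference of -1.79 (adjusted p = 0.018). The difference of the differences was -3.75 (SE 0.73, adjusted p = 0.00651 by edgeR). In the main fit, where males weigh more because each group holds 2 males and 1 female, Slc22a26 was not called for diet.

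Slco1a4 rose in males by 1.32 (SE 0.12) and had a difference of -0.01 (SE 0.17) in females (difference of the differences -1.33, SE 0.21, adjusted p = 0.00106 by edgeR). Abcd2 differed by 1.59 in males and 0.14 in females (-1.45, SE 0.38, adjusted p = 0.0489), but this call was lost without any 1 of 27 libraries, with adjusted p up to 0.133. Abca3 differed by 0.18 in males and -0.37 in females (-0.56, SE 0.13, adjusted p = 0.0216), with female means of 188 ± 11.6 CPM on control diet and 145 ± 13.5 CPM on MCD (n = 6 each). Slc22a19, at under 1 CPM, and Slco2a1 were lower on MCD in males (-0.83 and -0.35) and not called in females (0.49 and 0.15), with differences of 1.32 (SE 0.28) and 0.5 (SE 0.12). Calls were lost without 1 of 4 libraries for Abca3 and 1 of 5 for Slco2a1, with adjusted p up to 0.0651 and 0.0712. Without the 3 libraries that lay apart all 7 were called and 4 others were added.

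In SCN no member was called for diet (0.0635% of all 15759 genes were), and none of the 44 had an unadjusted p under 0.05 in edgeR's test, where 746 of all genes did. DESeq2 and limma-voom called none either. The largest differences were those of Slco4c1 (0.43, SE 0.4) and Abcb6 (-0.28, SE 0.21). Slc22a17, a brain member that binds lipocalin, had the highest level per kb, 91 CPM per kb on control diet and 87.7 on MCD, followed by Abcf2 (31.6 and 30.6). Slco1a4 was at 22.7 ± 4.58 CPM (17.2 to 36.3) on control diet and 22.7 ± 3.7 CPM on MCD, a difference of 0 (SE 0.08). Abcg4, filtered out in liver, was at 36 ± 3.09 CPM, and Slc22a8, at 0 in control liver, was at 5.05 ± 1.17 CPM.

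Rhythms in SCN were called for 5 of 44 members on control diet (15.1% of all genes) and 9 on MCD (16.1%), and none differed between the diets (0.0127% of all genes; 6 members had an unadjusted p under 0.05). Leaving out any 1 library gave 2 to 6 rhythm calls on control diet and 7 to 10 on MCD. Abca8b and Abca5 were called on both diets, with fitted ranges of 0.68 and 0.76 on the log2 scale on control diet. Abca5 peaked at 10.3 ± 0.913 h (SE) on control diet and 9.13 ± 0.841 h on MCD. Abcc8, the sulfonylurea receptor that gates potassium channels, was also called on both, and it was high at other hours: control libraries were at 10.6, 8.4 and 7.29 CPM at CT16 and 2.41, 3.63 and 1.82 CPM at CT12. On control diet its call was lost without any 1 of 12 libraries, with adjusted p up to 0.0958 by edgeR. Slc22a3 was called on MCD (range 1.04, adjusted p = 0.0019), rising from 3.53, 3.83 and 5.59 CPM at CT16 to 12.5, 10.6 and 8.22 CPM at CT12. By sex 4 of 44 members differed in SCN (9.89% of all genes), with Abca3 (-0.24), Abcf1 (-0.19) and Abcf3 (-0.17) lower and Abcd2 (0.38) higher in females.

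**Figure D4:**
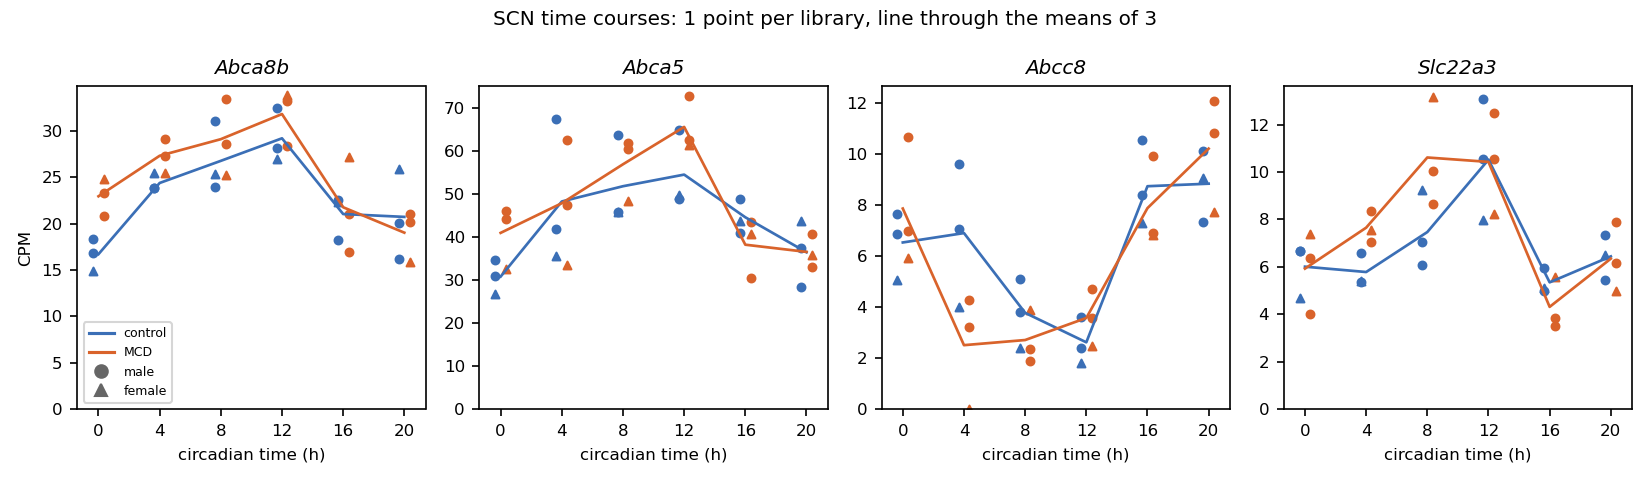
SCN CPM (y axis) against circadian time in h (x axis) for 4 members called rhythmic in SCN; each point is 1 library, circles are males and triangles females, and lines join the means of 3. Abca8b, Abca5 and Slc22a3 are highest at CT08 or CT12 on each diet, and Abcc8 is highest at CT16 or CT20.

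The diet difference was tested between the tissues for the 42 members listed in both, in a fit over all 72 libraries. It differed for 22 of them (34.7% of all 14491 genes), with 15 more positive in liver (18.9% of all genes) and 7 more negative (15.8%). Abcb10 differed by -1 in liver and -0.07 in SCN (liver minus SCN -0.94, SE 0.1, adjusted p = 1.97e-10 by edgeR), and Abcd3 by -0.89 and -0.05 (-0.84, SE 0.1). On the positive side Abcc4 differed by 1.48 and 0.07 (1.41, SE 0.31, adjusted p = 0.000277), Abcd2 by 1.11 and -0.16 (1.26, SE 0.25) and Slco1a4 by 0.88 and 0 (0.87, SE 0.18). Slc22a3, called lower in liver, differed by 0.09 in SCN (-1.19, SE 0.37, adjusted p = 0.00892). Without the 3 liver libraries that lay apart the same 22 were called.

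**Figure D5:**
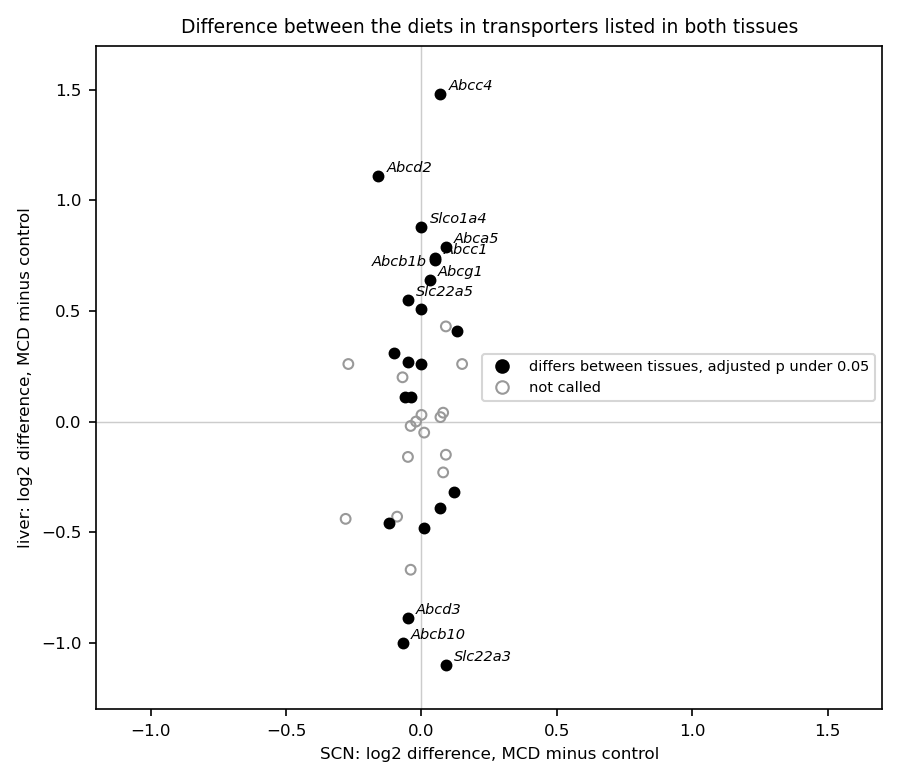
Log2 difference between the diets (MCD minus control) in SCN (x axis) and liver (y axis) for 38 of the 42 members listed in both tissues (Abcg4 and Slc22a8, whose standard errors are unbounded, are among those not drawn); each point is 1 member and filled points differed between the tissues at an adjusted p under 0.05. The points spread from -1.1 to 1.48 along the liver axis and stay between -0.28 and 0.15 along the SCN axis.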

How the data were processed

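RNA of 36 liver and 36 SCN samples was sequenced after a poly(A), stranded library preparation, per the labels' protocols. The deposited files used here are whole-number read counts per gene, 1 table per tissue. The submitters' processing notes name Trimmomatic, HISAT2, StringTie, DESeq2 and the build GRCm39; no source used here gives versions, the annotation release or the strand setting. Columns were matched to samples by name; 2 columns per table share the name of a control CT08 male and are called a and b.

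Counts were fitted per tissue with edgeR 4.0.16 (R 4.3.3): filterByExpr with a minimum count of 10, TMM scaling, robust quasi-likelihood F tests, 12 groups of diet and time plus a sex term, and a joint fit of both tissues. With 2 males and 1 female per group, the main diet difference weighs males more than females. P-values were Benjamini-Hochberg adjusted over all genes tested, with a threshold of 0.05. Rhythm was tested as a 24 h cosine and sine per diet; peaks ± SE come from a cosine fitted to the log2 values of each diet. DESeq2 1.42.0, limma 3.58.1 (voom), library totals, no filter, the replicate number as a block, a term for 2 kinds of liver library (low or high mt-Nd6), each kind alone, and left-out replicates and libraries were the alternatives; leaving out the 3 livers that lay apart was chosen after seeing the data. The scripts were tested on simulated data. Exon lengths, overlaps and shared 50-base windows are from GENCODE M21 (GRCm38), matched by gene identifier, and promoters from RefSeq (GRCm38.p6).

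The members and lists were chosen with earlier results of these data known. Full values are given, per comparison, for up to 10 called members in each direction by size at a mean of at least 1 CPM (8 for rhythm, 6 for sex and for sex by diet), for every member called for a difference in rhythm (at most 8) or by diet in SCN, for the most abundant member of each role, and for Slco1a1, Slco1a4, Slco1b2, Slco2b1, Abcc2, Abcc3, Abcc4, Abcg2, Abcg5, Abcg8, Abca1, Slc22a5 and Slc22a7 whatever their result; other members named were chosen after their values were seen. Some results on single genes are not reported here; those genes stay in the counts and medians. No label says that samples of the liver and SCN come from the same mice. Replicate libraries differed by more than sampling noise. The total counts per library, which set the counting precision, are in the results; exon-level counts were not used.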

Additional observations from a re-analysis of the deposited data

Results flagged for a closer look

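Among the liver results, the diet difference differed between the sexes for 7 members in edgeR's interaction test, of which 6 are given here as the log2 difference in females minus that in males: Slc22a26 -3.75, Abcd2 -1.45, Slco1a4 -1.33, Abca3 -0.56, Slco2a1 0.5 and Slc22a19 1.32. Of these, Slc22a26 was called in each sex and in opposite directions. Every female library carries replicate number 3, so sex and replicate number cannot be told apart.

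The diet difference also differed between the tissues for 22 members, given as the log2 difference in liver minus that in SCN. It was more negative in liver for Slc22a3 (-1.19), Abcb10 (-0.94), Abcd3 (-0.84), Abca2 (-0.49), Slc22a15 (-0.46), Abca1 (-0.45) and Slco2b1 (-0.35). It was more positive for Abcc4 (1.41), Abcd2 (1.26), Slco1a4 (0.87), Abca5 (0.7), Abcc1 (0.69), Abcb1b (0.67), Abcg1 (0.6), Slc22a5 (0.6), Abcc5 (0.51), Abca7 (0.41), Slc22a17 (0.31), Abca8b (0.28), Slco3a1 (0.25), Abcf1 (0.17) and Abcf2 (0.15). Calls near the threshold depended on single libraries: that of Slco2b1 was lost without any 1 of 45 of the 72 libraries, that of Abca8b without any 1 of 35 and that of Abcf2 without any 1 of 16, with adjusted p up to 0.0787, 0.0761 and 0.0644. Leaving out 1 of 8 libraries ended the call of Abcb1b and 1 of 7 that of Slc22a17.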

How the results depend on the processing

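In liver 43 members were called for diet; refits without 1 replicate number or 1 library called 30 to 45 members, not all of them among the 43, and 23 were called within the livers of low mt-Nd6 alone. Counts at single times moved widely: without 1 replicate number or library CT00 had 0 to 13 calls, CT04 2 to 26, CT08 0 to 9, CT12 0 to 19, CT16 1 to 11 and CT20 0 to 11. Under library totals CT00 had 19, CT08 2, CT12 25, CT16 11 and CT20 13 calls. DESeq2 called 2 at CT08 and 13 at CT16. Without control CT08 a there were 9 at CT08 and 11 at CT16, and without the 3 livers that lay apart 21 at CT00, 11 at CT08, 16 at CT16, 17 at CT20 and 11 for sex by diet; this last setting was chosen after seeing the data. Leaving out 1 replicate number or library gave 2 to 16 calls for the liver rhythm on control diet, 7 to 20 on MCD, 0 to 6 for the rhythm difference, 9 to 21 for sex, 0 to 10 for sex by diet and 11 to 24 for tissue by diet. In SCN it gave 0 to 6 for the rhythm on control diet, 1 to 10 on MCD and 0 to 7 for sex. Within the low kind of liver 3 members were called rhythmic on control diet, 10 for sex and 0 for the rhythm difference. Within the high kind 8 were called on control diet, 0 on MCD and 0 for the difference; each kind holds fewer samples. DESeq2 called 7 for the rhythm difference. The replicate number as a block left 1 rhythm difference in liver, that of Abca2, and 2 rhythms on control diet in SCN, those of Abca5 and Abca8b; the block had adjusted p of 0.0615 for Abcb6, 0.142 for Abcd3 and 0.179 for Abca8b in the first. Males of the same number did not deviate together when the difference between males 1 and 2 of a group was correlated across groups. These correlations ran from -0.32 to 0.3 with a median of 0 in liver, 6 of 55 pairs being over 0.1. In SCN they ran from -0.12 to 0.17, 12 of 55 being over 0.1. Replicate number 3, which holds every female, and the control CT08 group were not part of this check. Under library totals the liver diet difference changed sign for Abcc10 (0.11), Abce1 (0.2), Abcg2 (0.02), Slc22a23 (0.1) and Slco2a1 (0.07). Other changes of sign were in values near 0 that were not called. In liver Abce1 was 0 within the low kind. In SCN the ranges over left-out replicates and libraries were -0.04 to 0.06 for Abca2, -0.03 to 0.26 for Abcc4, -0.03 to 0.03 for Abcc5 and Slco3a1, -0.09 to 0.01 for Slc22a17, -0.2 to 0.07 for Slc22a5 and -0.07 to 0.07 for Slco1a4. Abcc5, Slco1a4 and Slco3a1 were at 0 under library totals, Slco3a1 at 0 by DESeq2, and Abcc5 at 0 with the replicate block. The cause of these changes was not tested. With 3 libraries per group, counts at single times rest on few samples, and members under 1 CPM rest on few counts.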
